A study of Mus musculus with 10 samples.

Results

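Mouse E14 embryonic stem cells lacking all 3 isoforms of Mbd3 (Mbd3abc KO) were compared with wild type E14 cells, and every gene listed in the authors' deposited table of that comparison was described. That table lists 8141 genes, of the 8694 that appear in at least 1 of the study's 4 tables, and a gene enters it by an adjusted p from the authors' own test. Wild type and Mbd3abc KO were each measured in 2 libraries of total RNA depleted of ribosomal RNA. The labels give the genotypes as wild type and Mbd3abc -/-. The mutant cells derive from E14 and carry CRISPR/Cas9 mutations in exon 5 of Mbd3, and both groups were grown on gelatin-coated plates. The 2 libraries of a group are described as biological replicates. The labels do not say whether the mutant libraries came from 1 clone or 2, and p-values measure the spread between these libraries, which may be technical. By the title, the study asked about a form of the NuRD complex that acts through Wdr5 in embryonic stem cells. Libraries are called first and second in the order of the table's columns, of which the mutant ones carry no replicate numbers.

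Mbd3 is a subunit of NuRD, a complex that joins an ATP-dependent nucleosome remodeller of the Chd family to the histone deacetylases Hdac1 and Hdac2. NuRD sits at active enhancers and promoters as well as at silent genes, and in embryonic stem cells it is known for setting the level of pluripotency genes and for allowing exit from self-renewal. Wdr5 is a shared subunit of the COMPASS family complexes that methylate histone H3 on lysine 4.

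The targeted gene checks the labels. Mbd3 (chr10:80392541-80399479, minus strand, mm10) had levels of 1775 and 1689 in the wild type libraries and 108 and 158 in the Mbd3abc KO libraries, where a level is the number of reads divided by the library's size factor. Both mutant libraries lay far below both wild type libraries, and the ratio of group means was 13.0-fold lower (log2 ratio -3.70; DESeq2 adjusted p 2.56e-51 in the authors' deposited table). The reads cover the whole transcript, so this level says nothing of whether the remaining RNA encodes a protein. Markers of embryonic stem cells were well covered in both groups. Pou5f1, the transcription factor Oct4, went from 10868 and 11648 in wild type to 2816 and 4647 in the mutant, and Sox2, its partner, went from 4011 and 3872 in wild type to 5020.3 and 6019 in the mutant, so the 2 moved in opposite directions. The 4 libraries held 5734989 to 9027663 reads over the listed genes.

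Of 15622 genes tested, 8132 (52.1%) were called at an adjusted p under 0.05. Of the tested genes, 4240 (27.1%) were higher in Mbd3abc KO and 3892 (24.9%) were lower. The mutant libraries lay wholly above or wholly below the wild type libraries for all 8132 called genes, 52.1% of those tested. These genes were selected by a test on the same 4 libraries, so the separation adds no support. How many of the unlisted genes are separated in this way is not known. Rises were larger than falls: the median fold was 2.61 among higher genes and 2.07 among lower genes. At least 10-fold changes were 395 rises and 74 falls, and at least 4-fold changes were 1254 rises and 431 falls. Of the reads over called genes, expressed as levels, the genes that rose held 25.9% in wild type and 59.4% in the mutant. Their share had to grow, as genes were sorted by the sign of this same change and genes not called were left out. In bulk RNA, fewer cells of a type and less RNA per cell cannot be told apart. With edgeR's quasi-likelihood test on reads recovered from the table, 7799 genes were called with all libraries, 4634 without the first wild type library and 4677 without the second. Without the first or the second mutant library the count was 7681 or 7785. With 1 library left in a group the spread comes from the pair of the other group, so the lone library is assumed to vary like that pair.

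The table also holds 9 genes just outside the threshold, with adjusted p from 0.0501 to 0.0504 in the authors' deposited table, among them Irf9, Pygo1, Unk, Neb, Rpl8, Adrbk2, Snrpb and Mrps2. Rpl8, a ribosomal protein gene, had levels of 15361 and 18538 in wild type and 11562 and 13783 in the mutant. Just inside it were Eva1b at 0.049969, and Egfr and Uhmk1 at 0.049975. Egfr, the epidermal growth factor receptor, had levels of 39.9 and 30.2 in wild type and 125 and 50.6 in the mutant.

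**Figure D1:**
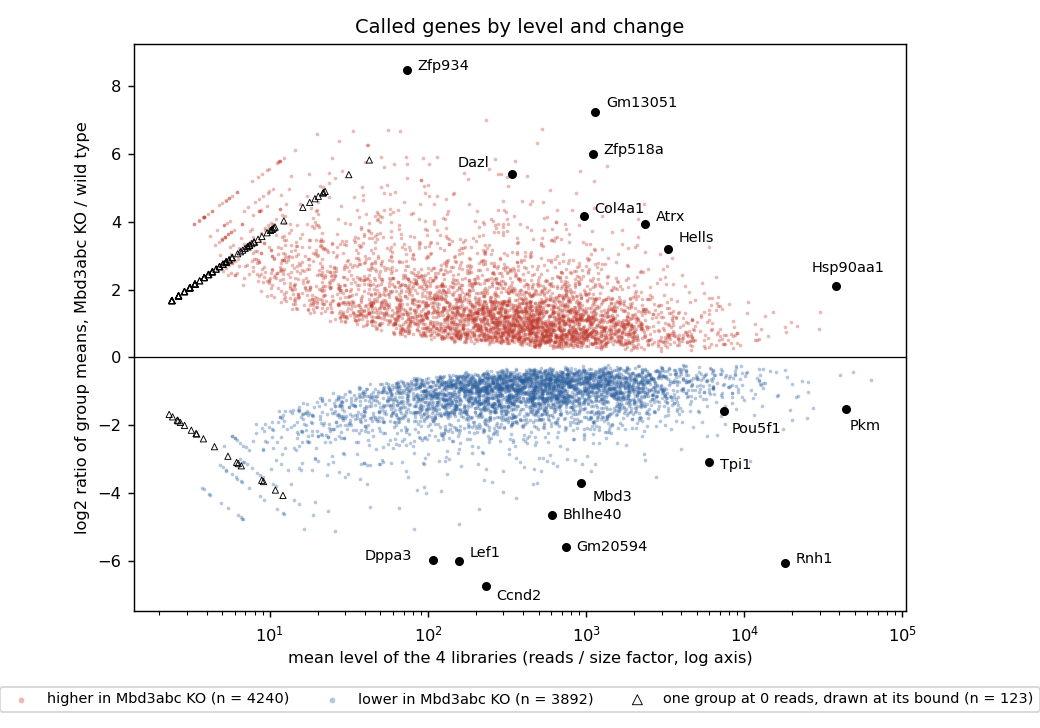
Mean level of the 4 libraries (reads divided by size factor, log axis) against the log2 ratio of group means, Mbd3abc KO over wild type, for the 8132 called genes, 1 point a gene. Red points (4240) are higher and blue points (3892) lower in the mutant, and open triangles are the 123 genes with 0 reads in a group, drawn at their bound. Rises reach higher log2 ratios than falls reach low ones, up to 8.49 for Zfp934 against -6.73 for Ccnd2, and Rnh1 stands alone among strongly expressed genes at -6.07.

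Replicates were close in wild type and wider in the mutant. The median fold between the 2 libraries of a group was 1.10 in wild type and 1.19 in Mbd3abc KO. Among the 4066 called genes above the median level of 334, the wild type libraries differed at least 2-fold for 4 genes and the mutant libraries for 70. The 4 wild type genes were Gm13051, Gm13154, Gm13242 and Zfp534, and the widest in the mutant were Enox1, Lincenc1 and Dtx1. Lincenc1, a long non-coding RNA of embryonic stem cells, went from 3252 and 3673 in wild type to 1714 and 285 in the mutant, and its 3.46-fold fall became 12.1-fold without the first mutant library and 2.02-fold without the second mutant library. Enox1, an oxidase of the cell surface, went from 772 and 736 in wild type to 49.3 and 321 in the mutant, 4.08-fold lower, or 2.35-fold without the first mutant library and 15.3-fold without the second mutant library. For both genes the mutant libraries lay below wild type but far from each other.

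How direction followed expression level depended on which libraries set the level. In quintiles (equal groups of called genes) by the mean of all 4 libraries, 66.1% of called genes were higher in the lowest quintile, 51.2%, 50.1% and 51.2% in the middle 3, and 42.2% in the highest. Ordered by wild type level the shares ran from 83.3% to 25.8%, and ordered by mutant level they ran the other way, from 47.0% to 61.9%. The size of change fell with the mean level, from a median of 2.10 on the absolute log2 scale in the lowest quintile to 0.91 in the highest. Of the 395 rises of at least 10-fold, 247 lay in the lowest quintile and 16 in the highest.

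Direction was closely tied to the base composition of the transcript. In the quintile of called genes lowest in GC (29.8% to 43.5%) 98.4% were higher in the mutant, and in the quintile highest in GC (56.6% to 72.3%) 10.4% were. The 3 quintiles between had 86.1%, 45.0% and 20.7%. Across 7812 genes Spearman's rho of GC content with the log2 ratio was -0.69. The same measure between the 2 wild type libraries was 0.05, and between the 2 mutant libraries it was -0.16. These are descriptions across genes, which share their libraries and are not independent replicates. The labels name 2 suppliers for the depletion of ribosomal RNA, NEB and Clontech, without saying which library had which, and its part in the GC pattern was not tested. Transcript length moved the share less. Within the lowest GC quintile 95.8% to 99.1% were higher in every length quintile, and within the highest GC quintile 6.0% to 18.6% were. The median GC content is printed beside the gene lists that follow, and its part in their changes was not tested. The GC content was computed from GENCODE M21 transcripts, which were found for 8105 of the called genes.

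**Figure D2:**
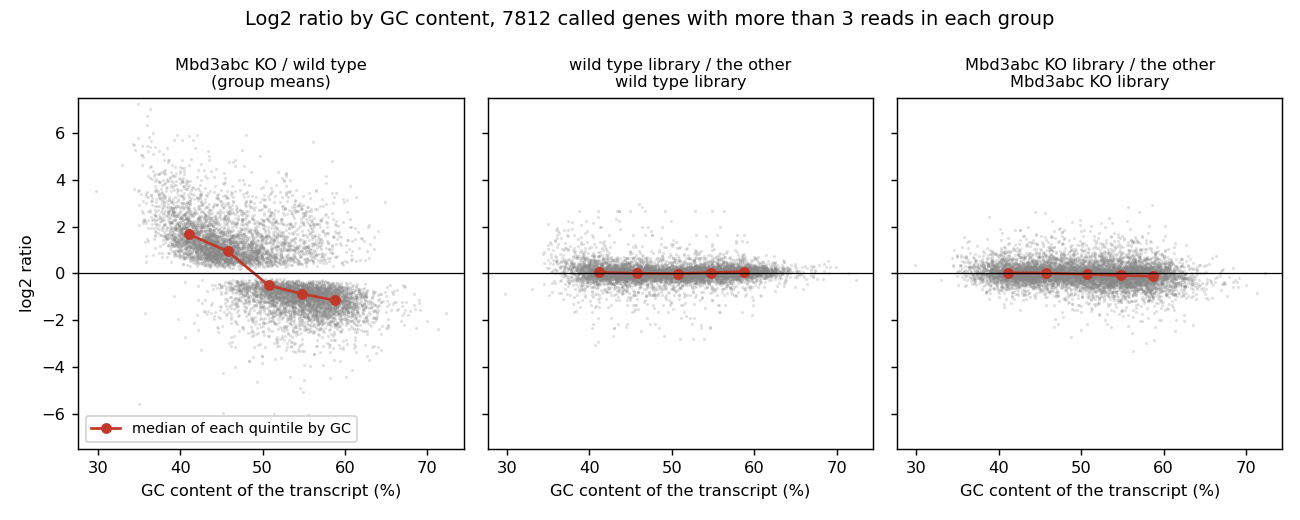
Log2 ratio against the GC content of the transcript for 7812 called genes with more than 3 reads in each group: Mbd3abc KO over wild type group means (left), 1 wild type library over the other (middle) and 1 mutant library over the other (right). Red points are the median of each quintile by GC; they fall from above 1 to below -1 in the left panel and stay near 0 in the others.

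Of the 1621 genes of the lowest GC quintile 26 were lower, 12 of them above the median level, and the 2 deepest of these were Gm20594 and Bnip3. Bnip3, a mitophagy receptor induced by hypoxia, went from 1439 and 1729.9 in wild type to 243 and 491 in the mutant, 4.32-fold lower, or 6.53-fold without the second mutant library. Of the 1621 genes of the highest GC quintile 168 were higher, 34 of them above the median level. Among these the furthest were the neighbouring basement membrane collagen genes Col4a1 and Col4a2, which share a promoter region and are transcribed apart from each other. Col4a1 (GC 57.7%) went from 109 and 93.8 in wild type to 2373 and 1276 in the mutant, 18.0-fold higher, and Col4a2 (GC 60.6%) went from 52.8 and 71.8 in wild type to 1129.9 and 545 in the mutant, 13.4-fold higher, or 8.75-fold without the first mutant library. The first mutant library was the higher one for both genes, and both mutant libraries lay above wild type. Mapt, which encodes the microtubule protein tau, followed from 219 and 182 in wild type to 832 and 907 in the mutant, 4.34-fold higher. These genes were singled out after their values were seen.

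Across chromosomes the share of called genes that were higher also went with GC. It ran from 29.3% on chromosome 11 and 32.0% on chromosome 7 to 70.0% on chromosome 13 and 70.9% on the X. Its Spearman's rho with the chromosome's median GC was -0.93 over 20 chromosomes. Chromosomes differed within the middle GC quintile as well, where 45.0% of called genes were higher. There the share was 25.9% on chromosome 11 (139 genes) and 30.9% on chromosome 7 (123), but 67.3% on chromosome 8 (52) and 64.3% on chromosome 10 (70). On chromosome 13 it was 56.9% (58 genes) and on the X 37.8% (45). Of 186 windows of 1 megabase with at least 10 called genes, 22 were wholly lower and 5 wholly higher. The wholly lower windows had a median GC of 54.4% to 64.3% and the wholly higher ones 38.5% to 44.7%. The largest were on chromosome 15 from 76 megabases (31 of 31 genes lower, median log2 ratio -1.21) and on chromosome 11 from 120 megabases (29 of 29 lower, -1.37). The wholly higher ones included 19 genes on chromosome 13 from 67 megabases (median 2.19) and 15 on chromosome 17 from 21 megabases (median 4.12), both rich in zinc finger genes.

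RNA classes did not share a direction. Protein-coding mRNA, 7867 of the called genes, was split into 4121 higher and 3746 lower, close to the 52.1% higher of all called genes. Long non-coding RNAs were 71 higher and 52 lower with a median log2 ratio of 1.08, and pseudogenes 33 higher and 15 lower with a median of 1.41. Short and structured RNAs leaned the other way: replication-dependent histone mRNAs 1 higher and 46 lower, miRNA precursors 7 and 16, small nucleolar and Cajal body RNAs 6 and 13, and other structured RNAs 1 and 4. The median over all called genes was 0.47.

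**Figure D3:**
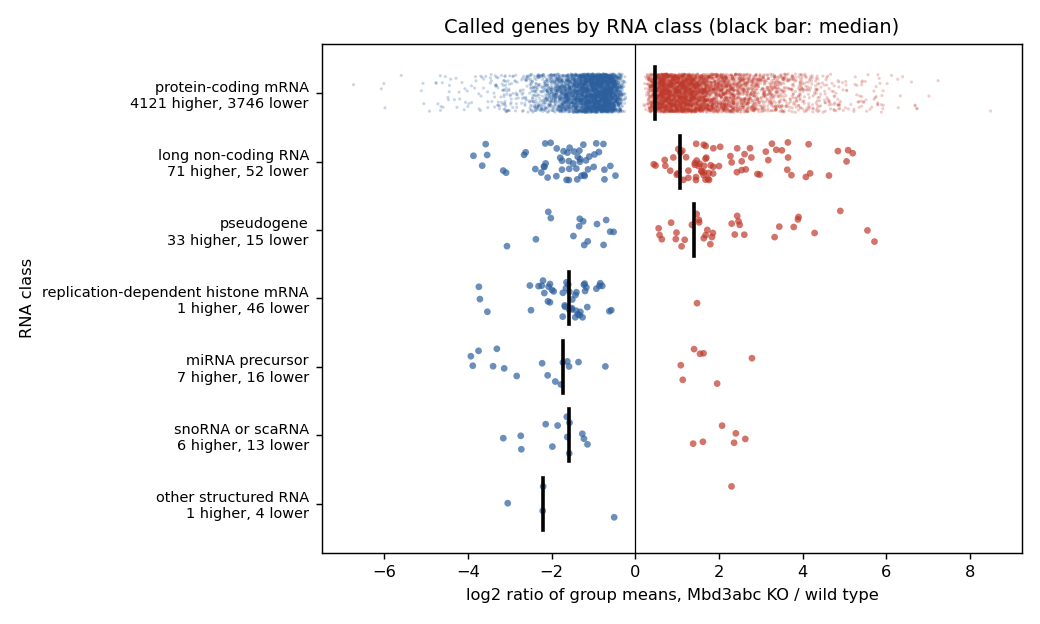
Log2 ratio of group means, Mbd3abc KO over wild type, for each called gene by RNA class, 1 point a gene (red higher, blue lower) with the class median as a black bar. Histone mRNAs sit almost wholly below 0, with 46 of 47 lower, and the pseudogene and long non-coding medians lie above the mRNA median of 0.48.

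Replication-dependent histone genes encode the bulk histones of S phase, from mRNAs that end in a stem-loop rather than a poly(A) tail. They fell in every class: 5 of 5 for H1, 11 of 11 for H2A, 13 of 14 for H2B, 10 of 10 for H3 and 7 of 7 for H4, where 52.1% of all called genes were higher. The median log2 ratio was -1.57 over the 47, and class medians ran from -1.31 for H1 to -2.01 for H2B. Hist1h2bn went from 5721 and 4491 in wild type to 446 and 437 in the mutant, 11.6-fold lower, and Hist1h2bp went from 982 and 826 in wild type to 56.1 and 82.0 in the mutant, 13.1-fold lower. In both genes the 2 mutant libraries were close together and far below wild type. The single rise was Hist2h2be, a gene that also makes polyadenylated mRNA, which went from 14.2 and 6.52 in wild type to 26.1 and 31.5 in the mutant, 2.78-fold higher, or 4.41-fold without the first wild type library. The median GC of the 47 was 57.8%. Of the 7 in the lowest 2 GC quintiles 6 were lower, quintiles in which 98.4% and 86.1% of called genes were higher. Histone genes are near-identical copies, and the counting could split reads among them.

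Among long non-coding RNAs, Malat1, a nuclear RNA of splicing speckles, went from 20409.6 and 22243 in wild type to 42509.5 and 33624 in the mutant, 1.78-fold higher. Tug1 went from 908 and 901 in wild type to 2807 and 2047 in the mutant, 2.68-fold higher, and Gas5, a host gene of small nucleolar RNAs, went from 1426 and 1263 in wild type to 1904 and 2475 in the mutant, 1.63-fold higher. In all 3 the libraries of the 2 groups stood apart, as they do in every called gene, and all 3 have GC under 43%. Snhg12, another such host gene, went the other way, from 313 and 283 in wild type to 151 and 153 in the mutant, 1.964-fold lower. Among pseudogenes Gm10416 had the largest ratio, from 3.86 and 1.63 in wild type to 188 and 100.2 in the mutant, 52.5-fold higher, or 88.5-fold without the first wild type library. Gm10509 was listed at 0 reads in wild type and at a level of 50.3 and 39.1 in the mutant, at least 29.8-fold higher against a floor of 3 reads over the 2 libraries. Pseudogenes share sequence with their parent genes, so their levels are uncertain. Of the long non-coding RNAs 9 carry antisense names. The counting used strand per the file header.

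For structured RNAs, the 45S ribosomal RNA precursor Rn45s went from 21246 and 17679.6 in wild type to 2385 and 2328 in the mutant, 8.26-fold lower. Ribosomal RNA was removed from these libraries before sequencing, and the part of that step in this difference was not tested. Terc, the telomerase RNA, went from 716 and 763 in wild type to 135 and 184 in the mutant, 4.63-fold lower, and Scarna2, a Cajal body RNA, went from 2254 and 1846 in wild type to 177 and 284 in the mutant, 8.89-fold lower. Rpph1, the RNA of RNase P, fell 1.42-fold, from 51873 and 42489.9 in wild type to 34712 and 31870.1 in the mutant. Rnu12, the U12 RNA of the minor spliceosome, went from 55.4 and 48.1 in wild type to 163 and 346 in the mutant, 4.93-fold higher, or 3.16-fold without the second mutant library. The 6 small nucleolar RNAs that rose were led by Snord2, from 6.44 and 8.16 in wild type to 44.5 and 45.8 in the mutant, 6.18-fold. Per kilobase of transcript, the 5 highest levels over the 4 libraries were those of Rpph1, Ftl1, Hspa8, Eef2 and Rplp1.

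Reads over miRNA precursors in libraries of this kind may come from primary transcripts, from hairpins or from other RNA of a gene that overlaps them. These sources were not told apart for any precursor, and the mature miRNAs were not measured. The precursors of the embryonic stem cell cluster on chromosome 7 are shown with the host gene of the miR-17 cluster because the mature forms from the 3 loci carry closely related seeds. The sequences are from RefSeq (GRCm38.p6), and capitals mark the seed, bases 2 to 8.
mmu-miR-290a-3p: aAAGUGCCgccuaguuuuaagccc
mmu-miR-291a-3p: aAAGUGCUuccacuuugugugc
mmu-miR-17-5p: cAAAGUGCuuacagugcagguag

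The precursor of the first, Mir290a, went from 54.1 and 42.4 in wild type to 83.1 and 129 in the mutant, 2.20-fold higher. The precursor of the second, Mir291a, lies in the same cluster and went from 25.7 and 31.0 in wild type to 0.967 and 4.77 in the mutant, 9.89-fold lower, or 5.95-fold without the first mutant library and 29.4-fold without the second mutant library. Mir17hg, the host gene of the third, went from 169 and 223 in wild type to 516 and 521 in the mutant, 2.65-fold higher. The 2 neighbouring precursors were thus called in opposite directions, both at low levels. That their libraries do not overlap adds no support, as this holds for every called gene. Mature sequences were found for 18 of the 23 called genes of this class, and their 26 seeds were all different. The deepest fall of the class was Mir5114, from 201 and 250.4 in wild type to 6.77 and 22.9 in the mutant, 15.2-fold, or 9.85-fold without the first mutant library and 33.3-fold without the second mutant library.

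Ranked by ratio among called genes above the median level, the 10 largest rises were Gm13051, Gm13154, Rex2, Zfp518a, Zfp534, Arhgap5, 2610305D13Rik, Dazl, Nlrp4f and Gm13242. Of these, 6 lie on chromosome 4: Gm13051, Gm13154, Rex2, Zfp534, 2610305D13Rik and Gm13242. Related zinc finger genes lie together there, and reads could be split among near copies. Gm13051 went from 24.5 and 5.71 in wild type to 2849 and 1699 in the mutant, 151-fold higher, or 398-fold without the first wild type library and 93.0-fold without the second wild type library. Gm13154 went from 15.4 and 4.08 in wild type to 1298 and 789.9 in the mutant, 107-fold higher, or 256-fold without the first wild type library and 67.6-fold without the second wild type library. The wild type libraries differed several-fold for both and the mutant libraries lay far above either. Outside chromosome 4, Zfp518a, a zinc finger protein of chromosome 19, went from 42.5 and 24.5 in wild type to 2339 and 2001 in the mutant, 64.8-fold higher, and Arhgap5, a GTPase activating protein, went from 57.9 and 47.3 in wild type to 2950.0 and 2337 in the mutant, 50.2-fold higher. Nlrp4f, of a family expressed in oocytes, went from 19.3 and 21.2 in wild type to 969 and 683 in the mutant, 40.8-fold higher. The GC content of the 10 ran from 34.4% in 2610305D13Rik to 41.8% in Nlrp4f, below the median of 50.6% over called genes.

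The 10 largest falls were Rnh1, Gm20594, Bhlhe40, Inhbb, Ephx2, Hist1h2bp, Mbd3, Hist1h2bn, Actn3 and Vim. Rnh1, the ribonuclease inhibitor (chr7:141160326-141168686, mm10), went from 44494 and 26857 in wild type to 584 and 481 in the mutant, 67.0-fold lower (DESeq2 adjusted p 2.42e-77 in the authors' deposited table). The 2 wild type libraries differed here, yet both were more than an order of magnitude above the mutant. Gm20594, annotated on chromosome 6, went from 1740.4 and 1174 in wild type to 29.0 and 31.5 in the mutant, 48.2-fold lower. Bhlhe40, a repressor linked to the circadian clock and hypoxia, went from 1182 and 1165 in wild type to 37.7 and 55.3 in the mutant, 25.2-fold lower, and Inhbb, the inhibin beta B chain of activin B, went from 694 and 661 in wild type to 44.5 and 32.4 in the mutant, 17.6-fold lower. Ephx2, soluble epoxide hydrolase, went from 871 and 834 in wild type to 78.3 and 49.6 in the mutant, 13.3-fold lower. Actn3, an alpha-actinin, went from 973 and 911 in wild type to 93.8 and 89.7 in the mutant, and Vim, the intermediate filament vimentin, went from 2047 and 1838 in wild type to 246 and 136 in the mutant, 10.2-fold lower. In each gene the libraries of a group lay close together compared with the gap between groups.

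**Figure D4:**
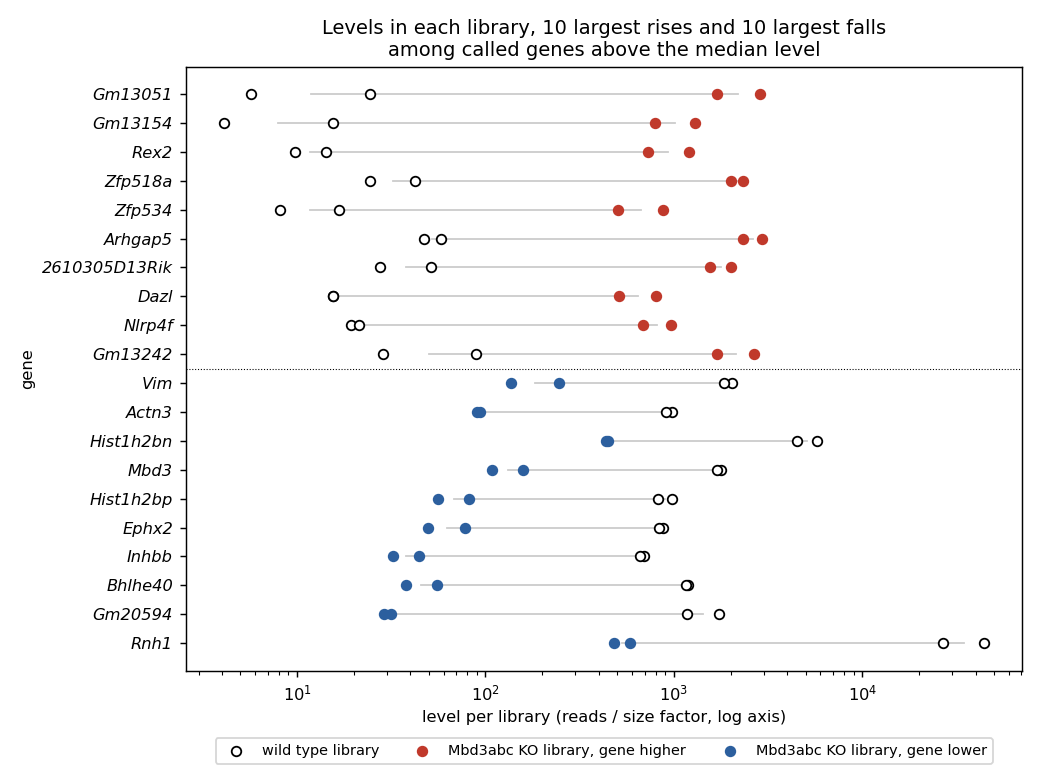
Level in each library (reads divided by size factor, log axis) for the 10 largest rises (top, red mutant points) and 10 largest falls (bottom, blue mutant points) among called genes above the median level; open circles are wild type libraries. Every mutant point is separated from both wild type points, and the wild type points of Gm13051 and Gm13154 lie furthest apart.

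Below the median level 3 falls were deeper than most. Ccnd2, cyclin D2, went from 444 and 472 in wild type to 2.90 and 5.72 in the mutant, 106-fold lower, the lowest log2 ratio of all called genes at -6.73. Lef1, a nuclear effector of Wnt signalling, went from 297 and 319 in wild type to 3.87 and 5.72 in the mutant, 64.3-fold lower. Dppa3, a maternal factor that protects DNA methylation in the early embryo, went from 192 and 233 in wild type to 4.83 and 1.91 in the mutant, 63.1-fold lower, or 111-fold without the first mutant library. All 3 were well above 100 in both wild type libraries and under 6 in both mutant libraries. The highest ratio was that of Zfp934, listed at 0 and 0.816 in wild type and 165 and 128 in the mutant, 359-fold higher. It rests on 1 wild type read, with a 95% counting interval of 52.2 to 11622.

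Function was described with gene lists. Each list is given by its called members beside the 52.1% of all tested genes that were called and the 52.1% of called genes that were higher, with the median GC of its called members. NuRD itself had 8 called members of 16, 4 in each direction (GC 56.3%). Besides Mbd3, Chd4, the main remodeller subunit, fell 1.74-fold, from 10646 and 10736 in wild type to 5223 and 7070.1 in the mutant, and Mta1 fell 1.40-fold. Mbd2, the paralog that can take the place of Mbd3 in NuRD, went from 59.2 and 60.4 in wild type to 290.0 and 219 in the mutant, 4.26-fold higher, and Hdac2 went from 750.5 and 811 in wild type to 2010.5 and 1645 in the mutant, 2.34-fold higher. Mbd2 has a GC of 56.5%, in a range where most called genes were lower. Mta3 rose 1.61-fold and Chd5 1.47-fold. Of the COMPASS list 15 of 19 members were called, 6 higher and 9 lower (GC 54.4%). Wdr5 went from 3210.4 and 3078 in wild type to 4177 and 5036 in the mutant, 1.47-fold higher (DESeq2 adjusted p 0.00151 in the authors' deposited table). The largest fall was that of Kmt2d, a methyltransferase of enhancers, from 6973 and 6593 in wild type to 2929 and 2969 in the mutant, 2.30-fold, and the largest rise that of Kmt2e, 2.47-fold.

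Polycomb complexes, which methylate or ubiquitinate histones at silent genes, had 20 called members of 31, 11 higher and 9 lower (median log2 ratio 0.66, GC 48.4%). From the lowest to the highest GC quintile 6, 4, 1, 0 and 0 members rose and 0, 0, 2, 3 and 4 fell. Some core and accessory subunits of the methylating complex rose, while Ezh1, another of its subunits, fell. Suz12 went from 1022 and 924 in wild type to 4007 and 4199 in the mutant, 4.22-fold higher, and Aebp2 and Mtf2 rose 4.08-fold and 3.001-fold. Bmi1, a ring finger subunit of the ubiquitinating complex, went from 7.72 and 5.71 in wild type to 85.1 and 48.7 in the mutant, 9.95-fold higher. Among the falls were L3mbtl2, 2.67-fold, Phc1, from 7809 and 7457 in wild type to 3509 and 3013 in the mutant, 2.34-fold, and Cbx7, 1.76-fold. Other nucleosome remodellers had 22 called of 32, 13 higher and 9 lower (GC 49.5%). Atrx, which deposits histone H3.3 at repeats, went from 348 and 233 in wild type to 4953 and 3922 in the mutant, 15.3-fold higher. Hells, needed for DNA methylation of repeats, went from 655 and 632 in wild type to 5420.5 and 6476 in the mutant, 9.24-fold higher. Smarca4, the Brg1 ATPase of BAF complexes, went from 6051 and 5958 in wild type to 3191 and 3608 in the mutant, 1.77-fold lower. The DNA methylation list had 11 called of 17, 7 higher and 4 lower (GC 52.6%). Dnmt3b, a de novo methyltransferase, went from 4924 and 4848 in wild type to 2342 and 1787 in the mutant, 2.37-fold lower, and the maintenance genes Dnmt1 and Uhrf1 fell 1.45-fold and 1.86-fold. Tet1, which oxidises methylcytosine, went from 4343 and 4437 in wild type to 5681 and 8253 in the mutant, 1.59-fold higher.

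Pluripotency genes were more often lower than higher. The core list had 15 called members of 20, 4 higher and 11 lower (median log2 ratio -0.89, GC 50.5%), and the naive list 16 of 23, 4 higher and 12 lower (median -0.80, GC 52.4%). Dppa3 led the falls of the core list, as given above. Pou5f1 fell 3.02-fold (DESeq2 adjusted p 6.53e-07 in the authors' deposited table), and Lin28a, which blocks let-7 maturation, went from 5482 and 5849 in wild type to 1268 and 2503 in the mutant, 3.005-fold lower. Tdh, threonine dehydrogenase, on which mouse embryonic stem cells depend, went from 8495 and 8633 in wild type to 1820.0 and 2739 in the mutant, 3.76-fold lower. Sox2 rose 1.40-fold. Rex2, which is on the core list by its name, is one of the chromosome 4 zinc finger genes and went from 14.2 and 9.79 in wild type to 1205 and 725 in the mutant, 80.6-fold higher. In the naive list the falls were led by Gbx2, from 279 and 304 in wild type to 12.6 and 50.6 in the mutant, 9.24-fold, or 5.77-fold without the first mutant library and 23.2-fold without the second mutant library, and Nr0b1, from 2016 and 1666 in wild type to 314 and 450.3 in the mutant, 4.82-fold. Esrrb, an orphan nuclear receptor, went from 12203 and 11746 in wild type to 6586 and 6063 in the mutant, 1.89-fold lower, and Tfcp2l1 fell 1.46-fold. The 4 rises were Tbx3, Klf4, Klf5 and Lifr. Klf4, a transcription factor downstream of LIF, went from 2573 and 2263 in wild type to 5161 and 4253 in the mutant, 1.95-fold higher, and Tbx3 went from 1782 and 1751 in wild type to 6122 and 3658 in the mutant, 2.77-fold higher. Nanog and Zfp42 are not listed in the table and have no value here. The formative and primed list had 11 called of 23, 3 higher and 8 lower (GC 54.4%). Otx2, a driver of the formative state, went from 259 and 276 in wild type to 1189.8 and 1289.8 in the mutant, 4.64-fold higher, while Pou3f1 went from 92.7 and 86.5 in wild type to 17.4 and 37.2 in the mutant, 3.28-fold lower, or 5.15-fold without the second mutant library.

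Germline and meiosis genes are silent in most somatic cells and are held down in embryonic stem cells by several repressors. Of 49 members 29 were called, 23 higher and 6 lower, with a median log2 ratio of 2.06 against 0.47 over all called genes, and a median GC of 43.9%. In the lowest GC quintile all 14 called members rose, with a median of 2.80 against 1.72 for all called genes of that quintile. In the second lowest quintile 3 rose and 1 fell, a median of 1.88 against 0.98. In the middle quintile 6 rose and 3 fell, a median of 0.93 against -0.47. In the second highest 0 rose and 2 fell, a median of -2.55 against -0.87, and the highest quintile holds no called member. Dazl, an RNA-binding translational regulator of germ cells, went from 15.4 and 15.5 in wild type to 808 and 513 in the mutant, 42.7-fold higher (DESeq2 adjusted p 3.89e-39 in the authors' deposited table), the largest rise of the list. Sohlh2, a helix-loop-helix factor of early germ cells, went from 257 and 213 in wild type to 1939.9 and 1635 in the mutant, 7.60-fold higher. Ddx4, the germ cell helicase Vasa, went from 30.9 and 30.2 in wild type to 91.8 and 163 in the mutant, 4.17-fold higher. In each of these, as in every called gene, the libraries of the 2 groups did not overlap.

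Synaptonemal complex genes, which hold paired meiotic chromosomes together, rose from low levels. Sycp2 was listed at 0 reads in wild type and at levels of 51.2 and 35.3 in the mutant, at least 28.9-fold higher. Sycp3 went from 32.2 and 16.3 in wild type to 341 and 153 in the mutant, 10.2-fold higher, or 6.30-fold without the first mutant library. Sycp1 went from 0 and 1.63 in wild type to 21.3 and 11.4 in the mutant, 20.1-fold higher on 2 wild type reads (95% counting interval 4.19 to 140.4). Taf7l, a germ cell variant of a general transcription factor subunit, went from 2.57 and 0.816 in wild type to 67.7 and 22.9 in the mutant, 26.7-fold higher on 3 wild type reads (95% counting interval 9.9996 to 149). Tex15, needed for meiotic recombination, went from 7.72 and 1.63 in wild type to 175 and 176 in the mutant, 37.5-fold higher, or 107-fold without the first wild type library and 22.7-fold without the second wild type library. The 6 members that fell were Nanos3, Ddx25, Zp3, Tex19.1, Stag3 and Kit. Nanos3, a survival factor of primordial germ cells, went from 63.1 and 50.6 in wild type to 0.967 and 9.54 in the mutant, 10.8-fold lower, or 5.96-fold without the first mutant library and 58.8-fold without the second mutant library. Stag3, a meiotic cohesin subunit, went from 857 and 927 in wild type to 241 and 455 in the mutant, 2.57-fold lower.

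Promoters of germline genes that rose are shown because many hold the palindromic E-box CACGTG, the core site of helix-loop-helix factors such as Max. The 250 bases before the start site (RefSeq, GRCm38.p6) were searched for CACGTG and, on both strands, for TCCCGC, the core of E2F sites, and CCGGAAG, the core of Ets sites. A promoter was found for 18 of the 23 risen members and for 3166 of the 4240 called higher genes. CACGTG was found in 9 of the 18 promoters of risen members (50%), in 6.02% of 27025 promoters of all genes and in 8.75% of the 3166 promoters of called higher genes. The members that fell held it in 2 of 6. TCCCGC was found in 38.9% of the risen members' promoters against 32.3% for called higher genes, and CCGGAAG in 0 of 18 against 14.3%. A match is a description of letters, not of binding. In the runs below, on the strand of the gene, capitals mark CACGTG and, in Ddx4, also GCGGGA, the other strand of TCCCGC.
Sycp1, chr3:102936101-102936350, minus strand: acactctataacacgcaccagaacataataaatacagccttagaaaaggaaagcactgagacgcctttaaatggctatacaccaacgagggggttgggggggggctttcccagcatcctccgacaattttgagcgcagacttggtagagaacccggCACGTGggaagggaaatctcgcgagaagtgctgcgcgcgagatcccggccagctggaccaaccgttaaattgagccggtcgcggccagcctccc
Taf7l, chrX:134476491-134476740, minus strand: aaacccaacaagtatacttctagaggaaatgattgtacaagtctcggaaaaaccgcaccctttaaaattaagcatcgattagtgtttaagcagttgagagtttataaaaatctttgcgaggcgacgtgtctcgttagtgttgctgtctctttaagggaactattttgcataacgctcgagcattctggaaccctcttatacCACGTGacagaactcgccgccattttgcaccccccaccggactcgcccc
Slc25a31, chr3:40708621-40708870, plus strand: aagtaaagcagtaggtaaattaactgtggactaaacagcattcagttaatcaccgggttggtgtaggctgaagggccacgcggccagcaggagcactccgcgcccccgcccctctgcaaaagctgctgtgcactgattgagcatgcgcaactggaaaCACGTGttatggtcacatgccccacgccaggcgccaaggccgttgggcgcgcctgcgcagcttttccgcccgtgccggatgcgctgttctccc
Ddx4, chr13:112652311-112652560, minus strand: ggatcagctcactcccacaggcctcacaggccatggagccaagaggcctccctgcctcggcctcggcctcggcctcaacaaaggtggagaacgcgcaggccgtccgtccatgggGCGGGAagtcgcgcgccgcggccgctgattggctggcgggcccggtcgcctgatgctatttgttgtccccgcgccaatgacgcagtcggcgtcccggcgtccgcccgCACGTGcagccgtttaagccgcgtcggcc
Dazl, chr17:50293621-50293870, minus strand: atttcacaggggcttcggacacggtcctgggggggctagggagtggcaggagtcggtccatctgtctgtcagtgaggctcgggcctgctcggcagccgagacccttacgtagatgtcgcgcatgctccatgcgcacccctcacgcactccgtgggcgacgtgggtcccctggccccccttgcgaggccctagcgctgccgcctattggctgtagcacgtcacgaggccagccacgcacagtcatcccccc

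The Dazl window holds none of the 3 motifs, though the gene had the largest rise of the list. Slc25a31, an ADP/ATP carrier of male germ cells, went from 3.86 and 4.08 in wild type to 23.2 and 15.3 in the mutant, 4.84-fold higher. The 5 windows hold 14 to 31 CpG pairs, where the median over all promoters is 6 and over the risen germline members 17.5. The median is 17 over called higher genes, 16 over called lower genes and 16 over the germline members that fell. CpG content thus does not set the risen germline members apart from other called genes.

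Lineage markers of other cell types gave no single direction. Trophectoderm and placenta had 11 called of 30, 6 higher and 5 lower (GC 54.5%). Eomes, a T-box factor of trophoblast, went from 78.5 and 61.2 in wild type to 491 and 413 in the mutant, 6.47-fold higher, and Krt8, a simple epithelial keratin, went from 81.1 and 126 in wild type to 669 and 322 in the mutant, 4.78-fold higher, or 3.11-fold without the first mutant library. Krt18, its keratin partner, rose 3.12-fold, or 1.76-fold without the first mutant library. The defining factors Cdx2, Elf5 and Gata3 are not listed. Rhox5, a homeobox gene of the X chromosome, went from 288 and 322 in wild type to 15.5 and 4.77 in the mutant, 30.2-fold lower, or 64.0-fold without the first mutant library and 19.7-fold without the second mutant library. Primitive endoderm and endoderm had 10 called of 24, 4 higher and 6 lower (GC 55.0%). Here the rises were Col4a1, Col4a2, Dab2 and Amn, while the laminin chains Lama1, Lamb1 and Lamc1 fell 3.56-fold, 2.46-fold and 1.81-fold, and Gata4, Gata6 and Sox17 are not listed. Neuroectoderm had 1 higher and 9 lower of 29 (median -1.50, GC 55.5%). Pax6, an eye and forebrain factor, went from 19.3 and 17.1 in wild type to 0 reads in the mutant, at least 12.6-fold lower. Mesoderm had 4 called of 20 (GC 50.5%). Fibroblast and feeder markers had 5 called of 22 (GC 54.7%), of which Vim fell furthest, Col1a1 fell 1.87-fold and Thy1 rose 3.27-fold. The 2-cell-like list had 3 called of 25, all higher and 2 of them on few reads (GC 44.4%). Zscan4b went from 2.57 and 1.63 in wild type to 34.8 and 5.72 in the mutant, 9.63-fold higher, or 2.72-fold without the first mutant library and 16.5-fold without the second mutant library. No Hox gene was called.

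Epithelial junction and keratin genes had 23 called of 37, 17 higher and 6 lower (median 1.30, GC 52.7%). Both called members in each of the 2 lowest GC quintiles rose. In the middle quintile 7 rose and 1 fell, where 45.0% of called genes rose. In the second highest 2 rose and 2 fell, where 20.7% rose, and in the highest 4 rose and 3 fell, where 10.4% did. Epcam, an epithelial adhesion molecule, went from 897 and 859 in wild type to 2996 and 2143 in the mutant, 2.93-fold higher. Cdh1, E-cadherin, went from 5952 and 5789.9 in wild type to 7373 and 9933 in the mutant, 1.47-fold higher (DESeq2 adjusted p 0.0166 in the authors' deposited table). Marveld2, a tight junction protein, went from 30.9 and 34.3 in wild type to 249 and 213 in the mutant, 7.09-fold higher. The falls included Pkp2, a desmosomal plaque protein, from 1179 and 1207 in wild type to 298 and 273 in the mutant, 4.18-fold. Cadherins and protocadherins had 23 called of 92, or 25%, below the 52.1% of all tested genes. Of these 1 was higher and 22 lower (GC 52.8%), but most of the falls were variants of the gamma protocadherin cluster, whose transcripts share their last exons and so share reads.

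Glycolysis turns glucose into pyruvate and lactate, and many of its genes are targets of the hypoxia-inducible factors. Of the glycolysis and hypoxia list 29 of 38 members were called, 1 higher and 28 lower, with a median log2 ratio of -1.64 and a median GC of 53.5%. In the 3 quintiles highest in GC 8 of 8, 10 of 10 and 8 of 8 members fell, with medians of -1.53, -1.95 and -1.70, where all called genes had -0.47, -0.87 and -1.14. The 2 lowest quintiles hold 3 members: 1 rose and 1 fell in the lowest (median -0.73 against 1.72), and 1 fell in the next (-1.19 against 0.98). The falls ran from glucose entry to lactate export. Slc2a1, the glucose transporter Glut1, went from 11346 and 10807 in wild type to 1986 and 2581 in the mutant, 4.85-fold lower. Hk2, hexokinase, fell 2.87-fold and Pfkl, phosphofructokinase of liver type, went from 7536 and 7730.2 in wild type to 1594 and 2107 in the mutant, 4.12-fold lower. Tpi1, triosephosphate isomerase, went from 10843 and 10571 in wild type to 1164 and 1357 in the mutant, 8.496-fold lower (DESeq2 adjusted p 3.01e-106 in the authors' deposited table). Gapdh fell 2.19-fold, Pgk1 2.89-fold, Eno1 2.92-fold and Pkm 2.84-fold. Ldha, which makes lactate, went from 16469 and 18669 in wild type to 3766 and 7092 in the mutant, 3.24-fold lower. Slc16a3, a lactate exporter, went from 4105 and 4069.8 in wild type to 513 and 612 in the mutant, 7.26-fold lower, and Slc16a1, a second monocarboxylate carrier, was the 1 rise, from 1516 and 1601 in wild type to 2091 and 2795 in the mutant, 1.57-fold.

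Regulators and targets of the hypoxia response fell with the enzymes. Pfkfb3, which makes the activator of phosphofructokinase, went from 442 and 401 in wild type to 40.6 and 45.8 in the mutant, 9.76-fold lower. Egln3, an oxygen-sensing prolyl hydroxylase, went from 884 and 994 in wild type to 62.8 and 178 in the mutant, 7.79-fold lower, or 14.9-fold without the second mutant library. Ndrg1 went from 564 and 566 in wild type to 66.7 and 108 in the mutant, 6.47-fold lower, and Ddit4, an inhibitor of mTOR, went from 1411 and 1267 in wild type to 291 and 319 in the mutant, 4.39-fold lower. In all 4 genes both mutant libraries lay below both wild type libraries, a separation that every called gene shows in its own direction.

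Serine, one-carbon and nucleotide synthesis had 22 called of 34, 3 higher and 19 lower (median -1.0, GC 52.9%). Phgdh, the first enzyme of serine synthesis, went from 3198 and 3405 in wild type to 662 and 1064 in the mutant, 3.83-fold lower, and Shmt2, the mitochondrial serine hydroxymethyltransferase, went from 5116 and 5000.4 in wild type to 1543 and 1608 in the mutant, 3.21-fold lower. Gcat, which acts after Tdh in threonine breakdown, went from 1407 and 1442 in wild type to 354 and 319.6 in the mutant, 4.23-fold lower. The rises included Ppat, of purine synthesis, 1.98-fold, and Aldh1l1, of folate metabolism, 1.74-fold. Cholesterol synthesis had 15 called of 25, 2 higher and 13 lower (median -1.27, GC 54.5%). The mutant libraries stood well apart in some of its genes. Lss, lanosterol synthase, went from 1469 and 1226 in wild type to 263 and 633 in the mutant, 3.01-fold lower, or 5.12-fold without the second mutant library. The first mutant library was the lower one, and both lay below wild type. Solute carriers as a family had 130 called of 337, or 38.6%, below the 52.1% of all tested genes. Of these 57 were higher and 73 lower (GC 53.04%).

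**Figure D5:**
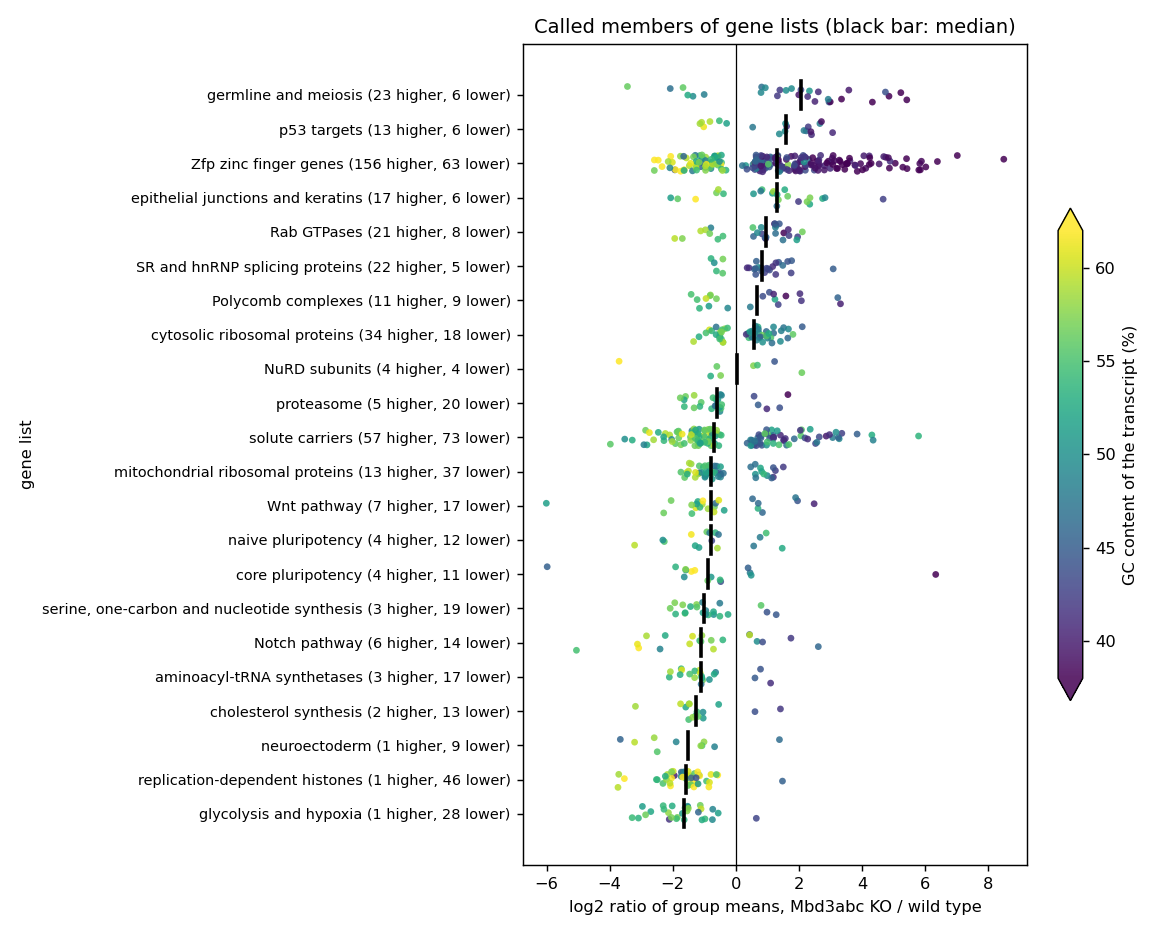
Log2 ratio of group means, Mbd3abc KO over wild type, for the called members of 22 gene lists ordered by their median (black bar), 1 point a gene coloured by the GC content of its transcript. Glycolysis and histone members lie below 0 at every GC content but 1 gene each, while zinc finger and solute carrier genes pass from below to above 0 as GC falls.

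Lists of translation genes did not share a direction. Cytosolic ribosomal protein genes had 52 called of 84, 34 higher and 18 lower (median 0.57, GC 51.7%). Mitochondrial ribosomal protein genes had 50 called of 78, 13 higher and 37 lower (median -0.78, GC 51.4%). The difference between these lists was not tested. From the lowest to the highest GC quintile, cytosolic members that rose numbered 2, 10, 13, 7 and 2, and those that fell 0, 1, 2, 9 and 6. Mitochondrial members that rose numbered 3, 5, 4, 1 and 0, and those that fell 1, 6, 12, 9 and 9. Rps24 went from 4875 and 5281 in wild type to 16249 and 15538 in the mutant, 3.13-fold higher, and Rpl21 went from 1591 and 1992 in wild type to 5925 and 5446 in the mutant, 3.17-fold higher. Mrpl12 went from 1537 and 1509.7 in wild type to 484 and 506 in the mutant, 3.08-fold lower, and Mrps7 went from 736 and 782 in wild type to 229 and 225 in the mutant, 3.34-fold lower. Ribosomal protein genes have many processed copies, so single values are uncertain. Aminoacyl-tRNA synthetases had 20 called of 34, 3 higher and 17 lower (median -1.11, GC 53.3%). The falls were led by Sars, from 5304 and 5920.4 in wild type to 984 and 1619 in the mutant, 4.31-fold lower. From the lowest to the highest GC quintile 1, 2, 0, 0 and 0 synthetases rose and 0, 1, 4, 6 and 6 fell. Of all called genes 98.4%, 86.1%, 45.0%, 20.7% and 10.4% rose in those quintiles. RNA polymerase subunits had 18 called of 27, 5 higher and 13 lower (GC 51.4%). Among them Polr1b of RNA polymerase I went from 3591 and 3503 in wild type to 797 and 1149 in the mutant, 3.65-fold lower. SR and hnRNP splicing proteins had 27 called of 31, 22 higher and 5 lower (median 0.82, GC 44.6%). By the same quintiles 10, 11, 1, 0 and 0 of them rose and 0, 0, 1, 3 and 1 fell. Srsf10 went from 514 and 543 in wild type to 1535 and 2024 in the mutant, 3.37-fold higher. Proteasome genes had 25 called of 48, 5 higher and 20 lower (GC 51.6%). Psmb5, a catalytic subunit, went from 1929.6 and 2281 in wild type to 594 and 648 in the mutant, 3.39-fold lower. By the same quintiles 3, 2, 0, 0 and 0 proteasome genes rose and 0, 2, 7, 9 and 2 fell. Chaperones had 12 called of 35, 8 higher and 4 lower (GC 48.3%). Among them Hsp90aa1 went from 14482 and 14360.1 in wild type to 60806 and 63441 in the mutant, 4.31-fold higher.

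Signalling lists held changes in both directions. The Wnt list had 24 called of 45, 7 higher and 17 lower (median -0.79, GC 53.6%). From the lowest to the highest GC quintile 1, 5, 0, 1 and 0 members rose and 0, 1, 4, 3 and 9 fell. Of all called genes 98.4%, 86.1%, 45.0%, 20.7% and 10.4% rose in those quintiles. Beside Lef1, Axin2, a feedback target of the pathway, went from 425 and 385 in wild type to 159 and 149.8 in the mutant, 2.63-fold lower, and the receptor genes Fzd5 and Fzd7 fell 2.30-fold and 2.20-fold. Fzd3 went from 79.8 and 74.2 in wild type to 371 and 488 in the mutant, 5.58-fold higher, and Apc, a scaffold of beta-catenin breakdown, from 874 and 812 in wild type to 3387 and 3152 in the mutant, 3.88-fold higher. The Notch list had 20 called of 35, 6 higher and 14 lower (median -1.09, GC 55.3%). By the same quintiles 1, 3, 1, 0 and 1 members rose and 0, 0, 2, 4 and 8 fell. The ligand Dll1 went from 212 and 105 in wild type to 2.90 and 6.68 in the mutant, 33.2-fold lower, or 22.0-fold without the first wild type library and 54.8-fold without the second mutant library. The receptor Notch4 went from 1180.4 and 1046 in wild type to 119.8 and 136 in the mutant, 8.69-fold lower, and Jag1, another ligand, from 596 and 518 in wild type to 74.4 and 136 in the mutant, 5.28-fold lower. Rbpj, the DNA-binding effector, went from 4399.9 and 4487 in wild type to 8704 and 7282 in the mutant, 1.80-fold higher.

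The Nodal, BMP and TGF-beta list had 23 called of 40, 14 higher and 9 lower (median 0.52, GC 49.6%). Of the receptor genes 6 rose and Acvr2b fell 1.91-fold. The rises included Bmpr2, from 138 and 138 in wild type to 676 and 675 in the mutant, 4.90-fold, and Acvr2a, from 68.2 and 62.8 in wild type to 493 and 419 in the mutant, 6.96-fold. Ligands and targets held the deep falls: Lefty1, an inhibitor of Nodal, went from 1308 and 1314 in wild type to 158 and 247 in the mutant, 6.48-fold lower, and Id1, a target of BMP signalling, from 135 and 135 in wild type to 38.7 and 56.3 in the mutant, 2.85-fold lower. Lefty2, its neighbour in the family, rose 1.35-fold. The FGF and MAP kinase list had 21 called of 40, 8 higher and 13 lower (GC 51.8%). Fgf17 went from 444 and 364 in wild type to 7.73 and 28.6 in the mutant, 22.2-fold lower, or 14.1-fold without the first mutant library and 52.2-fold without the second mutant library, and Fgf4, the main FGF of embryonic stem cells, went from 2439 and 2255 in wild type to 1607 and 1120.0 in the mutant, 1.72-fold lower. The LIF, Jak and Stat list had 20 called of 27, 10 higher and 10 lower (GC 50.7%). Stat3, the effector of LIF, went from 2026 and 1869 in wild type to 1247 and 1236 in the mutant, 1.57-fold lower, and Socs3, its feedback inhibitor, fell 1.499-fold, while the receptor gene Lifr rose 1.48-fold. Jak3 went from 1246 and 1109 in wild type to 69.6 and 187 in the mutant, 9.18-fold lower, or 16.9-fold without the second mutant library, and Jak2 from 38.6 and 53.013 in wild type to 224 and 172 in the mutant, 4.32-fold higher.

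Targets of p53 had 19 called of 30, 13 higher and 6 lower (median 1.57, GC 48.0%). In the 2 lowest GC quintiles 6 of 6 and 4 of 4 rose, with medians of 2.39 and 2.20 where all called genes had 1.72 and 0.98. In the middle quintile 3 rose and 1 fell, a median of 1.47 against -0.47. In the second highest 1 fell (-0.52 against -0.87), and in the highest 4 of 4 fell (-1.05 against -1.14). Ccng1, cyclin G1, went from 649 and 595 in wild type to 7117 and 3299.9 in the mutant, 8.37-fold higher, or 5.30-fold without the first mutant library. Mdm2, the ubiquitin ligase of p53, went from 570.3 and 548 in wild type to 3213 and 2044 in the mutant, 4.70-fold higher, and Trp53inp1 went from 878 and 848 in wild type to 6477 and 4835 in the mutant, 6.55-fold higher. Trp53 itself went from 5089 and 5287 in wild type to 3479 and 3743 in the mutant, 1.44-fold lower, and Bax, a pro-apoptotic target, fell 1.77-fold. Cdkn1a is not listed. The cell cycle list had 32 called of 49, 18 higher and 14 lower (GC 49.7%). The D cyclins start the cycle with Cdk4 and Cdk6, and all 3 of their genes fell. Beside Ccnd2, Ccnd1 went from 1761 and 1833 in wild type to 595 and 833 in the mutant, 2.52-fold lower, and Ccnd3 from 3594 and 3708 in wild type to 1045 and 1423 in the mutant, 2.96-fold lower. Rb1, the retinoblastoma protein they act on, went from 106 and 106 in wild type to 1429.5 and 860.5 in the mutant, 10.8-fold higher. DNA replication and repair genes had 36 called of 53, 19 higher and 17 lower (GC 46.7%). The helicase subunits Mcm2, Mcm3, Mcm5 and Mcm7 fell 1.56-fold, 1.94-fold, 2.04-fold and 1.85-fold, while Mcm4 rose 1.38-fold. Brca2, of homologous recombination, went from 318 and 173 in wild type to 1773 and 2767 in the mutant, 9.25-fold higher.

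Stress and immune genes were mixed. The integrated stress and unfolded protein list had 13 called of 28, 5 higher and 8 lower (GC 52.983%). Trib3, a target of Atf4, went from 761 and 662 in wild type to 103 and 173 in the mutant, 5.15-fold lower. The chaperone Hsp90b1 went from 3082 and 3211 in wild type to 8448 and 10012 in the mutant, 2.93-fold higher. The interferon list had 15 called of 32, 5 higher and 10 lower (GC 53.4%). Ifitm1 went from 3671 and 3829 in wild type to 775 and 731 in the mutant, 4.98-fold lower, while the class I antigen genes B2m and H2-D1 rose: B2m from 29.6 and 56.3 in wild type to 478 and 248 in the mutant, 8.46-fold, and H2-D1 from 115 and 150.1 in wild type to 619 and 393 in the mutant, 3.82-fold. Imprinted genes, expressed from 1 parental copy, had 14 called of 36, 8 higher and 6 lower (GC 47.0%). Peg10 went from 2809 and 2966 in wild type to 10969 and 8359 in the mutant, 3.35-fold higher, and Peg3 from 785 and 804 in wild type to 274 and 229 in the mutant, 3.16-fold lower.

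Genes named Zfp with a number, most of them zinc finger factors, had 219 called of 397, 156 higher and 63 lower (median 1.30, GC 42.2%). All 121 in the lowest GC quintile rose, with a median of 2.43 against 1.72 for all called genes there. In the highest quintile 1 rose and 29 fell, with a median of -1.39 against -1.14. Within this family the direction thus followed GC as it did over all called genes. Some other families of low GC were mostly higher: Rab GTPases of vesicle traffic were 21 higher and 8 lower (29 called of 59, GC 47.0%), ubiquitin-specific proteases 26 and 12 (38 of 56, GC 47.0%), centrosomal Cep proteins 15 and 6 (21 of 34, GC 46.2%) and kinesins 12 and 7 (19 of 38, GC 48.1%). Others of like median GC were near even or mostly lower: spliceosome Sf and Snrp proteins were 18 higher and 19 lower (37 called of 48, GC 47.1%), translation initiation factors 19 and 18 (37 of 56, GC 47.3%) and nucleoporins 5 and 8 (13 of 25, GC 47.5%). Within these lists too the direction went with GC. From the lowest to the highest GC quintile 9, 8, 0, 1 and 0 spliceosome members rose and 0, 3, 7, 7 and 2 fell. For initiation factors 12, 6, 0, 1 and 0 rose and 0, 1, 7, 8 and 2 fell. For nucleoporins 1, 4, 0, 0 and 0 rose and 1, 1, 2, 3 and 1 fell. Cep290, a ciliary gate protein, went from 9.01 and 2.45 in wild type to 192 and 198 in the mutant, 34.1-fold higher, or 79.9-fold without the first wild type library and 21.7-fold without the second wild type library. Kif20b, a kinesin of cytokinesis, went from 172 and 93.0 in wild type to 2234 and 2518 in the mutant, 17.9-fold higher. Rab34, from 357 and 368 in wild type to 95.7 and 93.5 in the mutant, 3.83-fold lower, has a GC of 59.5%.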

How the data were processed

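RNA of 2 wild type and 2 Mbd3abc KO libraries was compared. The authors used TopHat2, HOMER and DESeq2 with mm10, per the submitters' processing notes, which name no versions. HOMER took reads over exons by strand and condensed transcripts to genes, per the file headers. The deposited read columns are a normalized signal, whole multiples of a step per library, so reads were recovered (all values whole within 0.006 read) and divided by size factors recovered from the deposited mean. Log2 ratios are of group means, with no pseudocount. The deposited log2 fold change was used to compare signs, the deposited score (the statistic of the authors' test) was not used, and adjusted p-values are those of the authors' DESeq2 test in the deposited table, with Benjamini-Hochberg adjustment over 15622 genes, a number recovered from the p-values. Genes with an adjusted p under 0.05 are called here. Depth was 5734989 to 9027663 reads over listed genes, and the total depth is not known. Counting intervals are exact at 95% and cover counting error only. A group at 0 was set to a floor of 3 reads over its 2 libraries.

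Named genes are Mbd3, the 10 highest and 10 lowest ratios among called genes above the median level, the 3 highest and 3 lowest of each RNA class, up to 4 members of each list with the largest absolute ratio, the 5 highest per kilobase and the 5 whose libraries differ most. Others named are further list members, and were chosen after their values were seen, as were the split of lists by GC content and the printed sequences. The members and lists were chosen with earlier results of these data known. Alternatives used edgeR 4.0.16, limma 3.58.1 and DESeq2 1.42.0 in R 4.3.3 on the recovered reads of listed genes only, after a test on simulated data. Other steps used Python 3.11.15, pandas 2.3.3, scipy 1.17.1 and matplotlib 3.10.9.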

Additional observations from a re-analysis of the deposited data

How the results depend on the processing

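Alternative tests on the recovered reads, which cover listed genes only, called 4093 genes higher and 3706 lower with edgeR, 3482 and 3208 with DESeq2, and 4042 and 3683 with limma. edgeR's counts ran from 2537 to 4045 higher and from 2050 to 3740 lower when 1 library was left out, with a single library taken to have the spread of the other pair. With a change of at least 2-fold, 2099 genes were lower, and above the median level 1928 were higher and 2138 lower. The share of higher genes in the lowest quintile by level was 83.3% by wild type level and 47.0% by mutant level. In the highest quintile it was 25.8% by wild type level, 61.9% by mutant level and 45.4% among genes changed at least 2-fold. Which group sets the order of levels fixes these shares by construction, as a gene that fell ranks higher by wild type level. Under TMM scaling no called gene changed sign, the median log2 ratio moved by -0.03, and the directions of 61 lists with called members were the same. The TMM factors came from the listed genes only, nearly all called as changed, while TMM assumes that most genes are unchanged. They are therefore no independent check of the scaling. Of 284 genes 4 to 7 moved beyond the spread between libraries when 1 library was left out. That spread is wider than most shifts that leaving out 1 of 2 libraries can give, so the small number says little. None changed sign, which was fixed beforehand, as the libraries of the 2 groups do not overlap for any called gene. No paired analysis was possible because the table's columns carry no replicate numbers. With 2 libraries a group, a single library can set a value, and below about 3 reads a group's level is mostly counting error.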
